A study of Mus musculus with 12 samples.

Results

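The livers described here are 3 from mice that received silibinin during carbon tetrachloride (CCl4) injury and 3 from the CCl4 model group, whose labels name no drug. They were chosen by their treatment labels and are 6 of the 12 livers sequenced. Male C57/BL6N mice were used, and the model, silibinin and phloridzin groups received intraperitoneal CCl4 in olive oil over 8 weeks, with 2 injections of 5 mL/kg in each week. Drugs were given from week 5, so silibinin was tested in livers already under injury, and all 4 groups were collected at the end. The 3 control livers are labelled wild type with no CCl4, and the 3 phloridzin livers received another drug with CCl4. The age of the mice, and whether the model group received a vehicle in place of a drug, are not given in the sources used here. Total RNA of whole liver was sequenced on the Illumina NovaSeq platform. Libraries held 83.7, 101.6 and 100.1 M (mega) fragments in the model livers and 106.8, 110.9 and 110.1 M in the silibinin livers. Levels are scaled FPKM, the deposited fragment counts relative to transcript length and library size, summed over the transcripts of a gene and scaled between livers.

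Silibinin is a flavonolignan of milk thistle, long used as a liver protectant, and phloridzin is a dihydrochalcone glucoside. Hepatocytes secrete large amounts of protein, and proteins that misfold in the endoplasmic reticulum (ER) set off the unfolded protein response, in which the sensors PERK, IRE1 and ATF6 raise ER chaperones and the machinery that degrades misfolded proteins. PERK is also an entry to the integrated stress response, in which phosphorylated eIF2 favours translation of ATF4, and ATF4 with its partners raises genes of amino acid supply and stress signalling. CCl4 is converted to radicals by cytochrome P450 enzymes of hepatocytes, and repeated dosing is a standard way to produce liver fibrosis in mice.

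Genes called lower in the silibinin than in the model livers included 13 of 30 ER chaperones, 13 of 26 integrated stress response targets and 11 of 24 immediate early genes. Genes called higher included 4 of 26 for bile acids, 8 of 44 for fatty acid oxidation and 9 of 46 for amino acid metabolism, and the last 2 counts drop to 3 and 4 without model replicate 2. The fibrillar collagens, by contrast, did not pass the test, and their levels overlapped between the groups. Lists and members were chosen with earlier results of these data known. A list share above that of all tested genes is therefore partly built in. Lists also share members, so the same gene can count in several. Of 11576 genes tested, 232 (2%) were called lower and 190 (1.64%) higher in the silibinin livers, at an adjusted p under 0.05 (limma, Benjamini-Hochberg) and a log2 fold change below -1 or above 1. Groups did not overlap in 421 of these 422 genes, against 4151 (35.9%) of all tested genes, and 402 of them are protein-coding. Fold changes are differences of group means of log2(scaled FPKM + 1), a scale that understates changes of genes at low levels. The median log2 fold change of all tested genes was 0.01. Without scaling between livers it was -0.16 and the split was 101 higher against 412 lower, so the share of higher calls went from 45.0% to 19.7%, and directions are given relative to the scaled median. With upper quartile scaling the split was 207 higher and 215 lower (49.1% higher). Without model replicate 2, 110 genes were called higher and 193 lower.

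**Figure D1:**
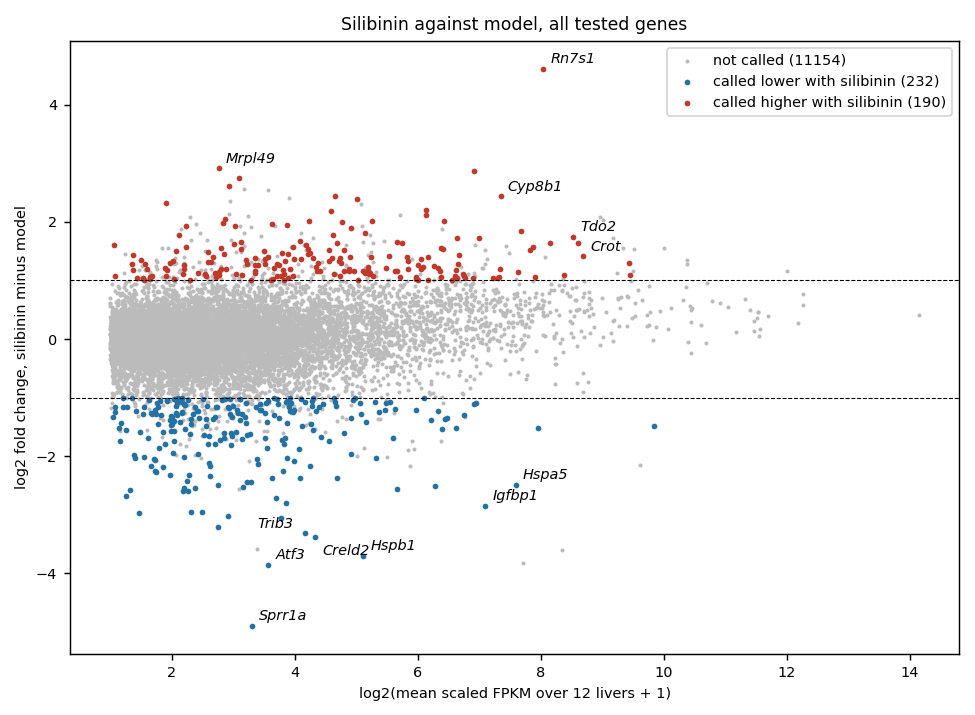
Each dot is 1 of the 11576 genes tested, with the log2 of its mean scaled FPKM over 12 livers plus 1 on the x axis and the log2 fold change of silibinin minus model on the y axis. The 232 genes called lower reach -4.89 (Sprr1a) and the 190 called higher reach 4.62 (Rn7s1), with dashed lines at -1 and 1.

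A large share of the list of ER chaperones and folding enzymes was called lower. Of the 30 tested members of the list, 13 were called lower and 0 higher (43.3% against 2% of all tested genes), and the median log2 fold change was -0.81 against 0.01 for all tested genes. Hspa5 encodes BiP, the main chaperone of the ER lumen and the protein that holds the sensors inactive (ENSMUSG00000026864, chromosome 2). Its level was 405, 458 and 466 scaled FPKM in the model livers and 83.2, 85.2 and 67.0 in the silibinin livers, with 148, 200 and 156 in the control livers. All 3 silibinin livers lay below every model liver and also below every control liver. The log2 fold change was -2.49 (95% CI -2.84 to -2.13), a 5.64-fold higher mean in the model livers, with an adjusted p of 1.6e-05 (limma, Benjamini-Hochberg).

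Creld2, a secreted ER stress protein that acts as a disulfide isomerase, stood at 48.0, 65.9 and 46.0 scaled FPKM in the model livers and at 4.21, 4.30 and 3.89 in the silibinin livers. Control livers held 8.81, 16.9 and 16.7, so the silibinin values lay below both other groups. The fold change was -3.38 on the log2 scale (95% CI -3.87 to -2.90, adjusted p 1.6e-05, limma, Benjamini-Hochberg). Manf, an ER-resident and secreted neurotrophic factor, was at 99.0, 127 and 123 in the model livers and 20.2, 24.8 and 12.8 in the silibinin livers, a log2 fold change of -2.57. Calr, the calcium-binding lectin chaperone calreticulin, was at 112, 184 and 152 against 34.7, 23.8 and 18.9 (-2.50). Sdf2l1 and Dnajb9, which work with BiP, fell by 2.36 and 2.03 on the log2 scale, and Fkbp11, a prolyl isomerase of secretory cells, fell by 2.38. For each of these genes the lowest model liver was above the highest silibinin liver.

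Promoters of 3 of these genes are shown because they hold the ER stress response element (ERSE), the sequence to which ATF6 binds together with NF-Y. It was searched on both strands as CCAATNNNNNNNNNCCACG, which contains the CCAAT box, in the 300 bases from 250 before to 50 after each gene start of the RefSeq table (GRCm38.p6). Capitals mark the match, which reads as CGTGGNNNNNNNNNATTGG where it lies on the opposite strand. The Hspa5 promoter is at chr2:34771840-34772139 (plus strand), that of Creld2 at chr15:88819396-88819695 (plus strand) and that of Calr at chr8:84846882-84847181 (minus strand, printed in the direction of the gene).
Hspa5: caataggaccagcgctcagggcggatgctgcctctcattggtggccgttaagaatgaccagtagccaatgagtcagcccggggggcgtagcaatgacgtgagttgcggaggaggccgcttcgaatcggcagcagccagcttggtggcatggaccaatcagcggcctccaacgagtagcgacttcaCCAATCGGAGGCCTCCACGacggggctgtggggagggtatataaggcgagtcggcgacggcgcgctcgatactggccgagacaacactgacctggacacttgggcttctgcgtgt
Creld2: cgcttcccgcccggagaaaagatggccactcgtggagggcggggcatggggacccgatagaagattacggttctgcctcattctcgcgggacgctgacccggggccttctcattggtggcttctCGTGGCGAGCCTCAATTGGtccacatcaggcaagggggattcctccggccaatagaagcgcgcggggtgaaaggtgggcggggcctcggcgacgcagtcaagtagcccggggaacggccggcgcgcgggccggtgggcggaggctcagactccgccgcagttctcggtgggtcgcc
Calr: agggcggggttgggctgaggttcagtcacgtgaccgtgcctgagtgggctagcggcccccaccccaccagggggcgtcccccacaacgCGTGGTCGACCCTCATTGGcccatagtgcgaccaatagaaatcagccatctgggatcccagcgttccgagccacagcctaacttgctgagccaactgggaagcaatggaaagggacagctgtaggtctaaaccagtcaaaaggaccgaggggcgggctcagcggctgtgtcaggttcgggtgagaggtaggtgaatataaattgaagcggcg

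A promoter was matched for 25 of the 30 tested ER chaperone genes, and the ERSE was found in 7 of them (28.0%). It was present in 6 of the 11 matched members called lower, namely Hspa5, Hsp90b1, Calr, Dnajc3, Creld2 and Pdia6, and in 1 of the 14 matched members that were not called, Canx. Among the 8598 tested genes with a promoter it was found in 15 (0.174%), and among all 32851 promoters of the table in 39 (0.119%). Another element of the unfolded protein response (UPRE, TGACGTGG) was searched in the same promoters. It was found in 0 of the 11 matched members called lower and in 2 of the 14 not called (Txndc5 and Txndc11). Among the tested genes with a promoter the UPRE was found in 83 (0.965%). The CCAAT box alone was found in 11 of the 11 matched members called lower and in 9 of the 14 not called. Among the tested genes with a promoter it was found in 3696 (43.0%). List members were chosen with earlier results of these data known, and the difference between these shares was not tested. A match describes the letters in this window and is not a measured binding site.

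Machinery around the chaperones also held lower calls. The list of ER-associated degradation and quality control covers the return of misfolded proteins to the cytosol. Of its 31 tested genes, 6 were called lower (19.4% against 2% of all tested genes) and 0 higher, with a median of -0.54. The count was 9 without scaling and 2 with the highest transcript in place of the sum. Derl3, a channel component of that pathway, was at 8.50, 5.85 and 4.92 scaled FPKM in the model livers and 0.290, 0.614 and 1.02 in the silibinin livers, and Sel1l, its scaffold, at 73.3, 72.9 and 73.9 against 34.9, 33.6 and 34.6. Syvn1, its ubiquitin ligase, had the largest fall of the list at -2.80, with an adjusted p of 0.0051, or 0.18 with its highest transcript in place of the sum (limma, Benjamini-Hochberg). The end of Syvn1 overlaps that of Mrpl49 on the opposite strand, and reads in the stretch they share cannot be assigned to either gene. Derl3 and Sel1l did not overlap between the groups, and their log2 fold changes were -2.17 and -1.07 (adjusted p 0.00015 and 0.00033, limma, Benjamini-Hochberg). In the list of ER translocation, glycosylation and transport to the Golgi, 6 of 48 tested genes were called lower (12.5%) and 0 higher, with a median of -0.64. The count was 15 without scaling and 11 with voom. Srprb, the membrane anchor of the signal recognition particle receptor, was 22.5, 23.4 and 23.5 in the model livers and 5.60, 5.92 and 5.40 in the silibinin livers (log2 fold change -1.86, adjusted p 8.2e-06, limma, Benjamini-Hochberg). Sec61a1, the pore of the translocon, Ssr2 of the translocon-associated complex and Stt3a, a catalytic subunit of the oligosaccharyltransferase, fell by 1.34, 1.34 and 1.29 on the log2 scale.

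Of the 17 tested sensors and transcription factors of the unfolded protein response, 4 were called lower and 0 higher. The share lower was 23.5% against 2% of all tested genes, and the median was -0.60. With the highest transcript in place of the sum, or with a mean of at least 5, 2 were called lower. Eif2ak3, which encodes PERK, fell by 1.26 on the log2 scale, from 13.2 ± 1.26 (SD, n = 3) in the model livers to 4.92 ± 0.247 (SD, n = 3) in the silibinin livers. Wfs1, an ER membrane protein, fell by 1.25. Ddit3, the transcription factor CHOP of prolonged ER stress, was at 3.94, 27.5 and 36.0 in the model livers and at 0.747, 1.49 and 1.26 in the silibinin livers. Model replicate 1 was thus far below the other 2 model livers but still above every silibinin liver. The log2 fold change of Ddit3 was -3.02 (95% CI -4.34 to -1.69, adjusted p 0.0092, limma, Benjamini-Hochberg), and the adjusted p was 0.053 with only the 6 livers compared and 0.13 with its highest transcript in place of the sum. Levels of Atf4 and Xbp1, whose proteins are set largely by translation and by splicing, overlapped between the groups, with log2 fold changes of -0.79 (95% CI -1.50 to -0.08) and -0.50 (95% CI -1.11 to 0.11) and adjusted p of 0.14 and 0.27 (limma, Benjamini-Hochberg). Without silibinin replicate 3 Atf4 passed both thresholds, at -1.17 and an adjusted p of 0.023.

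**Figure D2:**
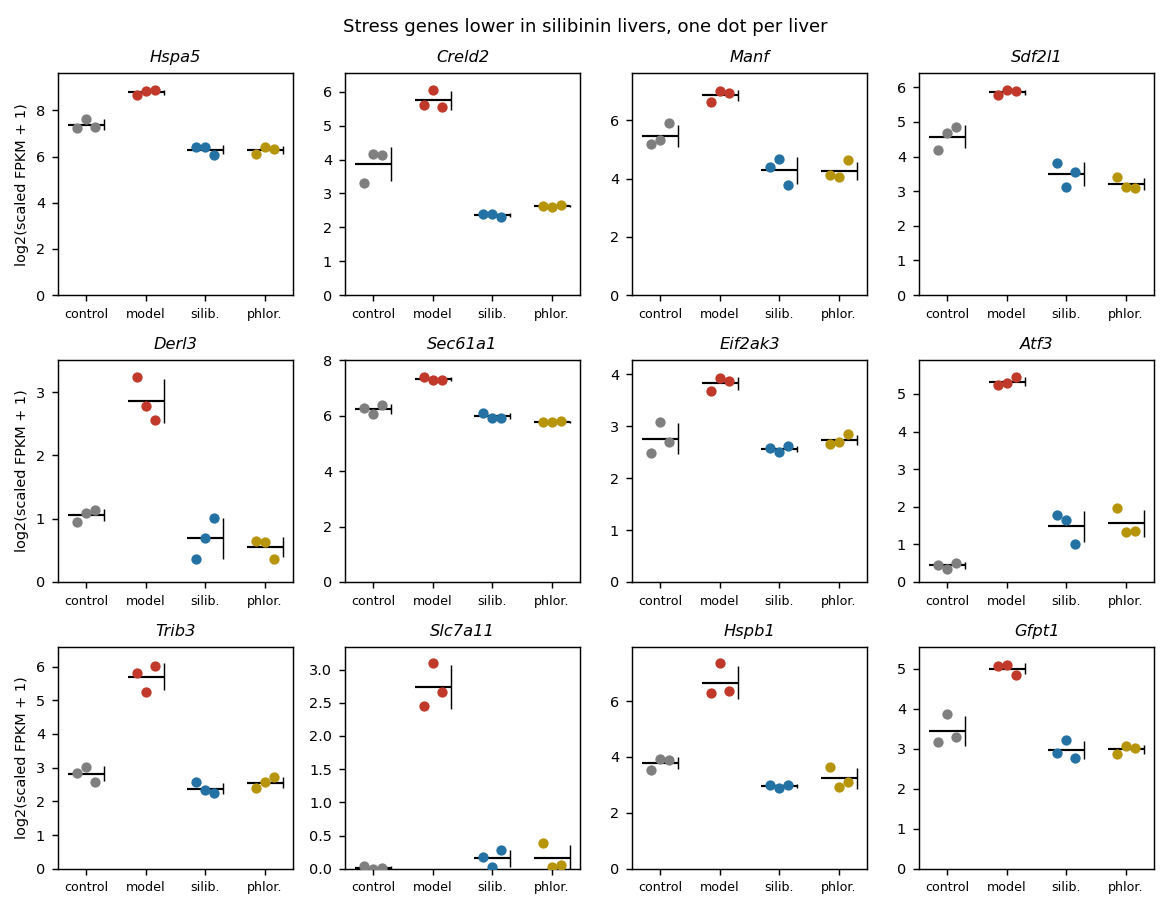
Each panel shows log2(scaled FPKM + 1) of 1 gene with 1 dot per liver, a line at the mean and a bar of 1 SD either side, in control, model, silibinin (silib.) and phloridzin (phlor.) livers (n = 3 each). In each of the 12 genes the 3 silibinin livers lie below the 3 model livers.

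Among 26 tested targets of the integrated stress response, 13 were called lower and 1 higher (50% lower against 2% of all tested genes), and the median was -1.13. The 1 higher call was lost without model replicate 1 or 2 or silibinin replicate 2 or 3, and with a mean of at least 5, 4 of 12 were called lower. Atf3, a stress-induced transcription factor of the ATF family, was at 36.6, 37.9 and 43.1 scaled FPKM in the model livers and 2.41, 2.13 and 1.01 in the silibinin livers. The control livers held 0.372, 0.273 and 0.428, so the silibinin livers lay between the control and the model livers with no overlap. The log2 fold change was -3.85 (95% CI -4.34 to -3.37) and the adjusted p 9.9e-06 (limma, Benjamini-Hochberg). Trib3, a pseudokinase that restrains AKT, was at 55.4, 37.2 and 64.0 against 4.96, 4.04 and 3.71 (-3.32). Fgf21, a fasting and stress hormone made by the liver, was at 8.78, 8.25 and 23.0 against 0.801, 0.433 and 0.796 (-2.96, adjusted p 0.0061, limma, Benjamini-Hochberg).

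Genes of amino acid supply formed part of that list. Slc7a11, the cystine and glutamate exchanger xCT, was at 4.47, 7.53 and 5.33 in the model livers and 0.127, 0.0186 and 0.210 in the silibinin livers, and its partner Slc3a2 at 47.0, 71.9 and 71.0 against 12.6, 16.6 and 16.9. Both were separate between the groups in every liver, at log2 fold changes of -2.58 and -1.96, and for Slc7a11 this scale understates the change because its silibinin levels lie under the pseudocount of 1. Psat1 of serine synthesis and Mthfd2 of mitochondrial folate metabolism fell by 2.49 and 1.86 on the log2 scale, and Nupr1, a stress-induced chromatin protein, fell by 2.03. Aminoacyl-tRNA synthetases charge tRNAs and are also ATF4 targets in part. Of 19 tested, 2 were called lower (10.5% against 2% of all tested genes) and 0 higher, with a median of -0.59. The count was 1 without any 1 of model replicates 1, 2 and 3 or silibinin replicates 1 and 3. Without scaling 6 were called lower, and with upper quartile scaling 1.

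For this group the amino acid response element TGATGCAA (TTGCATCA on the opposite strand), which ATF4 with CEBP partners is known to bind, was searched in the same RefSeq promoters. It was found in 6 of 22 matched members (27.3%), in 5 of the 12 called lower (Atf3, Chac1, Fgf21, Nupr1 and Slc7a11) and in 1 of the 10 others (Slc1a4). Among all tested genes with a promoter it was found in 62 (0.721%), and among all promoters in 294 (0.895%). Members of this list too were chosen with earlier results of these data known, and the difference between the shares was not tested. The promoters of Atf3 (chr1:191183284-191183583, minus strand, 1 match) and Slc7a11 (chr3:50443564-50443863, minus strand, 2 matches) are shown, since these genes differ in role but share the element; GRCm38.p6, capitals mark the matches.
Atf3: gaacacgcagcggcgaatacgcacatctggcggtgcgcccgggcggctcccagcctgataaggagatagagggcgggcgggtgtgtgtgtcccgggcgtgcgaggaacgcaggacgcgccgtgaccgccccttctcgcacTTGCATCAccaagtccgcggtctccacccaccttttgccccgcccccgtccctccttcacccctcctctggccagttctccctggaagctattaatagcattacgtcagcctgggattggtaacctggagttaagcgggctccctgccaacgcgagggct
Slc7a11: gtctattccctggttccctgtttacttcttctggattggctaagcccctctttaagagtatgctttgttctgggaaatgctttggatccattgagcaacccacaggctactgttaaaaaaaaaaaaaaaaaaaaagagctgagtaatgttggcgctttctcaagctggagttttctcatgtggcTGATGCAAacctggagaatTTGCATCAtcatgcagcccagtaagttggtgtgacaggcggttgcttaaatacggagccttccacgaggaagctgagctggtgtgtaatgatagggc

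Immediate early genes are the first transcripts made after growth factor or stress signals. Of 24 tested, 11 were called lower (45.8% against 2% of all tested genes) and 0 higher, with a median of -0.96. With a mean of at least 5, 6 of 14 were called lower. Fos and Jun, which pair as AP-1, were at 3.44, 7.41 and 6.34 and at 13.4, 20.1 and 16.1 scaled FPKM in the model livers. In the silibinin livers Fos was at 0.531, 0.497 and 0.846 and Jun at 4.86, 3.59 and 3.54, and neither gene overlapped. Their log2 fold changes were -2.01 and -1.80 (adjusted p 0.00053 and 0.00024, limma, Benjamini-Hochberg). Myc, a growth regulator, fell by 1.75 on the log2 scale, and Maff, Dusp5, Klf6 and Ier3 fell by 2.31, 2.18, 1.69 and 1.59. Jun, Myc and Klf6 stayed above every control liver in all 3 silibinin livers, while Fos, Maff, Dusp5 and Ier3 did not.

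Cytosolic heat shock proteins had 4 called lower (14.8% against 2% of all tested genes) and 0 higher of 27 tested, with a median of -0.45. Without scaling 6 were called lower. Hspb1, the small heat shock protein HSP25 that stabilises actin, was at 76.5, 162 and 80.5 in the model livers and 7.0, 6.38 and 6.98 in the silibinin livers, below the 10.6, 14.3 and 14 of the control livers. Its log2 fold change was -3.70 (95% CI -4.32 to -3.08, adjusted p 5e-05, limma, Benjamini-Hochberg). Hsp25-ps1, a processed copy of Hspb1, fell by 3.21, and fragments of these near-identical genes may have been split between them in the authors' counting. Hspa1b, inducible HSP70, and Hsph1, its exchange factor, fell by 2.71 and 2.05, and Hspa1b has a near-identical neighbour, Hspa1a, with which it can share reads.

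Of 40 tested genes for amino sugars and nucleotide sugars, the donors for glycoproteins, 8 were called lower (4 of 26 with a mean of at least 5) and 0 higher, at a median of -0.09. Gfpt1, the rate-limiting enzyme of the hexosamine pathway, was at 32.3, 33.1 and 27.6 in the model livers and 6.44, 8.26 and 5.86 in the silibinin livers, without overlap (log2 fold change -2.04, adjusted p 0.00013, limma, Benjamini-Hochberg). Gmppb and Pmm1, which make GDP-mannose and its precursor, fell by 1.71 and 1.37. Nans, of sialic acid synthesis, fell by 1.16.

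Among the 10 largest falls taken by the naming rule, Sprr1a, a cornified envelope protein, came first. It was at 29.0, 52.1 and 24.4 in the model livers, at 0.231, 0.255 and 0 in the silibinin livers and listed at 0 in all 3 control livers. Its log2 fold change was -4.89 (95% CI -5.42 to -4.36, adjusted p 6.2e-06, limma, Benjamini-Hochberg). Tnfrsf12a, the TWEAK receptor Fn14, was at 26.6, 47.5 and 48.1 against 3.93, 4.03 and 3.65 (-3.05). Igfbp1, a secreted binder of insulin-like growth factors, was at 276, 413 and 365 against 35.4, 25.8 and 116 (-2.84, adjusted p 0.011, limma, Benjamini-Hochberg). In Igfbp1 the silibinin livers differed among themselves, with replicate 3 above the others but under every model liver.

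In the list of matrix proteases and inhibitors, 5 of 20 tested genes were called lower and 0 higher (25.0% against 2%), with a median of -0.23, and 1 was called higher without model replicate 3 or silibinin replicate 3. With a mean of at least 5, 8 genes of the list were tested and 0 called, so the 5 calls are of genes at low levels. Mmp13, a collagenase, was at 3.36, 5.83 and 5.72 in the model livers and 0.546, 0.561 and 0.353 in the silibinin livers (log2 fold change -1.98, adjusted p 0.00049, limma, Benjamini-Hochberg). Plaur, the urokinase receptor, and Adamts1, a proteoglycan-cleaving protease, fell by 1.69 and 1.64. For Mmp13 and Plaur every silibinin liver remained above every control liver.

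In the list of collagens and other matrix genes, 1 of 34 tested genes was called lower (2.94% against 2%) and 0 higher, with a median of -0.04. With a mean of at least 5, 0 of 14 were called. The gene called was Thbs1, the matricellular protein thrombospondin 1 that activates TGF-beta, at 6.61, 9.03 and 7.10 in the model livers and 1.47, 1.46 and 1.48 in the silibinin livers (-1.79, adjusted p 0.00033, limma, Benjamini-Hochberg). Col1a1, the main fibrillar collagen chain of scar, was at 39.9, 32.7 and 53.3 scaled FPKM in the model livers and 50.4, 47.3 and 17.6 in the silibinin livers, with 1.90, 1.18 and 1.82 in the control livers. Silibinin replicates 1 and 2 lay within the range of the model livers and replicate 3 below it, and all 3 lay above every control liver. The difference was -0.23 with a 95% CI of -1.39 to 0.93 and an adjusted p of 0.83 (limma, Benjamini-Hochberg), so a change of up to 1.39 downwards on the log2 scale lies within the interval. Col3a1 was at 59.2, 47.7 and 53.1 against 72.3, 64.7 and 28.5, and its difference was -0.05 (95% CI -1.02 to 0.92). Beside these genes, the summed stellate cell and myofibroblast markers are given below with the other cell types.

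Other panel genes of fibrosis did not pass the test. Tgfb1, the leading profibrotic cytokine, was at 6.15, 9.38 and 8.15 in the model livers and 5.51, 6.97 and 7.17 in the silibinin livers (-0.23, 95% CI -0.59 to 0.14). Gpnmb and Spp1, markers of macrophages in scars, had differences of -0.13 (95% CI -1.39 to 1.13) and -0.28 (95% CI -1.08 to 0.51), again with silibinin replicate 3 the lowest of its group. Timp1, the inhibitor of collagenases, and Tnf lay under the filter on low values. Timp1 was at 1.2, 2.57 and 1.25 against 0.691, 0.453 and 0.668, and Tnf at 0.690, 1.15 and 1.31 against 0.187, 0.251 and 0.396. Both had no overlap and an exact two-sided permutation p of 0.1, the smallest that 3 livers against 3 can give.

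Of 26 tested bile acid genes, 4 were called higher in the silibinin livers (15.4% against 1.64%) and 1 lower, at a median of 0.59. Cyp8b1, the sterol 12-alpha-hydroxylase that sets the share of cholic acid, was at 30.2, 16.0 and 40.6 scaled FPKM in the model livers and 136, 122 and 209 in the silibinin livers, with 300, 377 and 238 in the control livers. The silibinin livers lay between the other 2 groups without overlap, and the log2 fold change was 2.44 (95% CI 1.73 to 3.15, adjusted p 0.0011, limma, Benjamini-Hochberg). Akr1d1, a reductase of bile acid intermediates, rose by 1.23 on the log2 scale and Abcg5, a subunit of a sterol export pump, by 1.29. Cyp7a1, the rate-limiting enzyme of bile acid synthesis, was at 20.7, 3.22 and 20.1 against 37.6, 33.9 and 116, a difference of 2.11 (95% CI 0.56 to 3.67) with an adjusted p of 0.074 (limma, Benjamini-Hochberg). The member called lower was Abcc4, an export pump for bile acids and drugs, at 11.1, 11.2 and 9.19 against 1.56, 1.78 and 2.52 (-1.97).

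In fatty acid oxidation 8 of 44 tested genes were called higher and 0 lower (18.2% higher against 1.64%), with a median of 0.75. The count was 4 without model replicate 1, 3 without model replicate 2, 12 without model replicate 3, 5 without silibinin replicate 2, 3 without silibinin replicate 3 and 5 without scaling. Acat1, a mitochondrial thiolase of ketone body metabolism, was at 6.83, 9.42 and 10.7 in the model livers and 22, 48.5 and 53 in the silibinin livers. Crot, a peroxisomal carnitine acyltransferase, was at 187, 192 and 234 against 571, 398 and 708. Both were separate between the groups, with log2 fold changes of 2.00 and 1.41 (adjusted p 0.0039 and 0.0031, limma, Benjamini-Hochberg). Cpt1a, which controls fatty acid entry into mitochondria, was at 21.2, 60.8 and 27.8 against 109, 139 and 167 (2.01, adjusted p 0.019, limma, Benjamini-Hochberg). Its adjusted p was 0.065 without model replicate 1, 0.056 without model replicate 3, 0.057 without silibinin replicate 2 and 0.064 without silibinin replicate 3.

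In amino acid and methionine metabolism 9 of 46 tested genes were called higher and 0 lower (19.6% higher against 1.64%), also at a median of 0.75. The count was 5 without model replicate 1, 4 without model replicate 2, 5 without silibinin replicate 2 and 6 without silibinin replicate 1, without silibinin replicate 3 or without scaling. Tdo2, the liver enzyme that opens tryptophan breakdown, was at 103, 83.9 and 201 in the model livers and 369, 377 and 479 in the silibinin livers, against 491, 448 and 418 in the control livers. Agxt, which detoxifies glyoxylate, was at 32.4, 32.5 and 40.2 against 101, 82.3 and 131, and Gldc of glycine cleavage at 28.4, 40.5 and 53.7 against 79.8, 108 and 100. The 3 genes did not overlap between the groups and had log2 fold changes of 1.75, 1.54 and 1.25 (adjusted p 0.0032, 0.0072 and 0.013, limma, Benjamini-Hochberg).

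**Figure D3:**
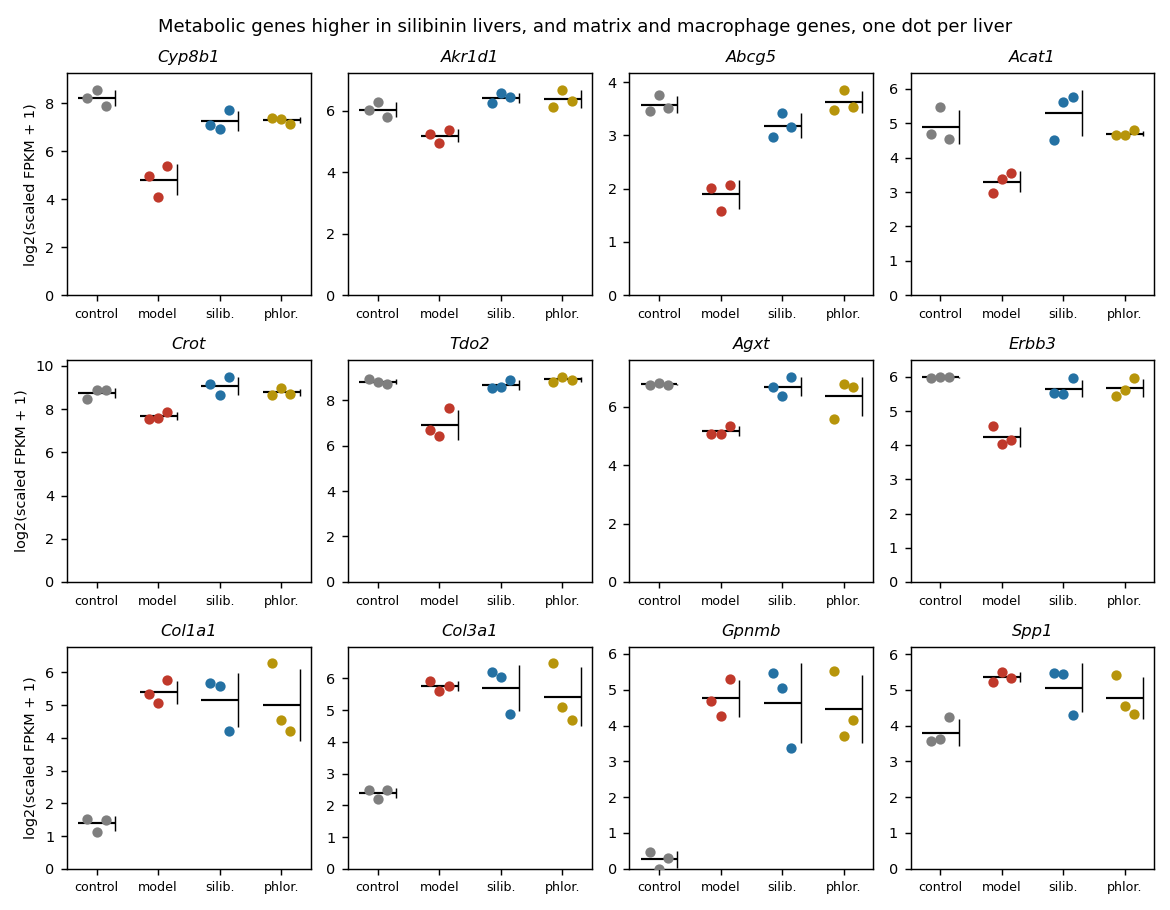
Each panel shows log2(scaled FPKM + 1) of 1 gene with 1 dot per liver, a line at the mean and a bar of 1 SD either side, in control, model, silibinin (silib.) and phloridzin (phlor.) livers (n = 3 each). In Cyp8b1 through Erbb3 the silibinin livers lie above the model livers, while Col1a1, Col3a1, Gpnmb and Spp1 overlap.

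Cytochrome P450 families 1 to 4 had 4 of 42 tested genes called higher and 0 lower (9.52% higher against 1.64%), with a median of 0.38. These were Cyp4a10, Cyp4a31, Cyp4a32 and Cyp4f15, fatty acid hydroxylases, and the Cyp4a genes are close paralogs among which fragments may have been split. Without model replicate 2 all 4 lost their call, with adjusted p of 0.067, 0.065, 0.053 and 0.1 in that order (limma, Benjamini-Hochberg), and each lost it with at least 1 other liver left out. The count was 2 without model replicate 1 and 1 without silibinin replicate 1 or 3, and 1 gene was called lower without silibinin replicate 3. Cyp2e1, the enzyme that activates CCl4, was at 408, 433 and 470 in the model livers, 1540, 650 and 1180 in the silibinin livers and 4200, 1550 and 4140 in the control livers. The silibinin livers were above every model liver and below every control liver, but the difference of 1.27 (95% CI 0.37 to 2.17) had an adjusted p of 0.065 (limma, Benjamini-Hochberg). Without silibinin replicate 2 it was 1.62 with an adjusted p of 0.042, past both thresholds. With the replicate block the difference of 1.27 also passed both, at an adjusted p of 0.036 (limma, Benjamini-Hochberg).

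Secreted hepatocyte proteins had 1 of 49 called higher (2.04% against 1.64% of all tested genes, median 0.48), or 0 without model replicate 2 or 3 or silibinin replicate 3. The gene, Serpina1b, also lost its call without silibinin replicate 1 (adjusted p 0.1, limma, Benjamini-Hochberg). It was lost too with the replicate block (0.065), without the filter on low values (0.065) and with the highest transcript (0.056). Hepatocyte transcription factors had 0 of 30 called (median 0.34), or 1 higher without model replicate 1 or 3. Cebpa, a factor that maintains the hepatocyte state, was at 79.1, 57.1 and 92.8 in the model livers and 150, 146 and 146 in the silibinin livers, without overlap. Its log2 fold change of 0.97 (adjusted p 0.0043, limma, Benjamini-Hochberg) was under the fold threshold, and it was over it without model replicate 1 (1.01) or model replicate 3 (1.12). Alb was at 11300, 18200 and 20200 against 23600, 27900 and 14700 (0.41, 95% CI -0.46 to 1.27). Major urinary proteins, a family of near-identical genes, had 0 of 19 called and a median of 0.24, with 1 called lower without silibinin replicate 2.

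Of 30 tested iron and ferroptosis genes, 5 were called lower (16.7% against 2% of all tested genes) and 1 higher (3.33% against 1.64%). The count of lower genes was 3 without model replicate 1, 2 without model replicate 2, 2 without silibinin replicate 1 and 3 without silibinin replicate 2. It was also 2 with only the compared groups and 3 without the filter on low values. The median of the 30 genes was 0.12 and turned to -0.09 without scaling. Slc7a11 and Slc3a2, described above, import the cystine used for glutathione. Steap3, the endosomal ferrireductase, rose by 1.2 on the log2 scale, from 2.98 ± 0.838 to 8.06 ± 1.15 scaled FPKM (SD, n = 3 each). Gpx4, the peroxidase that guards membranes against lipid peroxides, was at 92.3, 21.3 and 19.0 in the model livers and 69.4, 61.5 and 264 in the silibinin livers, a log2 fold change of 1.60 with an adjusted p of 0.19 (limma, Benjamini-Hochberg). The groups overlapped through model replicate 1, and without it the values were 2.32 and 0.07. Of 37 tested NRF2 targets, 2 were called lower (Abcc4 and Hmox1, 5.41% against 2%) and 0 higher, at a median of -0.17. Without silibinin replicate 3, 3 were called. Hmox1, heme oxygenase 1, was at 27.8, 53.6 and 43.5 against 14.3, 14.2 and 26.8 (-1.15, adjusted p 0.036, limma, Benjamini-Hochberg). Its adjusted p was 0.13 without model replicate 2, 0.091 without model replicate 3, 0.12 without silibinin replicate 1 and 0.11 without silibinin replicate 2. It was also 0.065 without the filter on low values and 0.077 with only the compared groups.

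In TNF signalling 4 of 52 tested genes were called lower and 0 higher (7.69% against 2%), with a median of -0.26. The count was 9 without scaling and 6 with voom, without model replicate 3 or without silibinin replicate 3. It was 2 with a mean of at least 5, and 3 with upper quartile scaling, with only the compared groups, and without model replicate 2 or silibinin replicate 1 or 2. The 4 were Cxcl10, Fos, Jun and Bcl3, and Fos and Jun are also counted among the immediate early genes. Cxcl10, a chemokine for T cells, was at 10.2, 12 and 10.4 in the model livers and 0.950, 0.925 and 2.53 in the silibinin livers (-2.33, adjusted p 0.0017, limma, Benjamini-Hochberg). Cxcl10 was also the 1 gene called among 37 interferon-stimulated genes (2.7% lower against 2% of all tested genes, median -0.19). In ErbB signalling 5 of 56 were called lower (8.93% against 2%) and 1 higher (1.79% against 1.64%), with a median of -0.04. The count of lower genes was 3 without model replicate 3 or silibinin replicate 3. It was 2 with a mean of at least 5 or with the highest transcript. The 5 were Nrg1, Jun, Myc, Cdkn1a and Btc, and Jun and Myc are also counted among the immediate early genes. Nrg1, a ligand of the ErbB receptors, was at 7.96, 6.88 and 7.30 against 1.11, 1.04 and 0.218, and Erbb3, its receptor, at 22.8, 15.3 and 16.7 against 44.9, 44.3 and 61.1. Ligand and receptor thus moved in opposite directions, by -2.27 and 1.41 on the log2 scale (adjusted p 0.0011 each, limma, Benjamini-Hochberg), with no overlap in either.

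**Figure D4:**
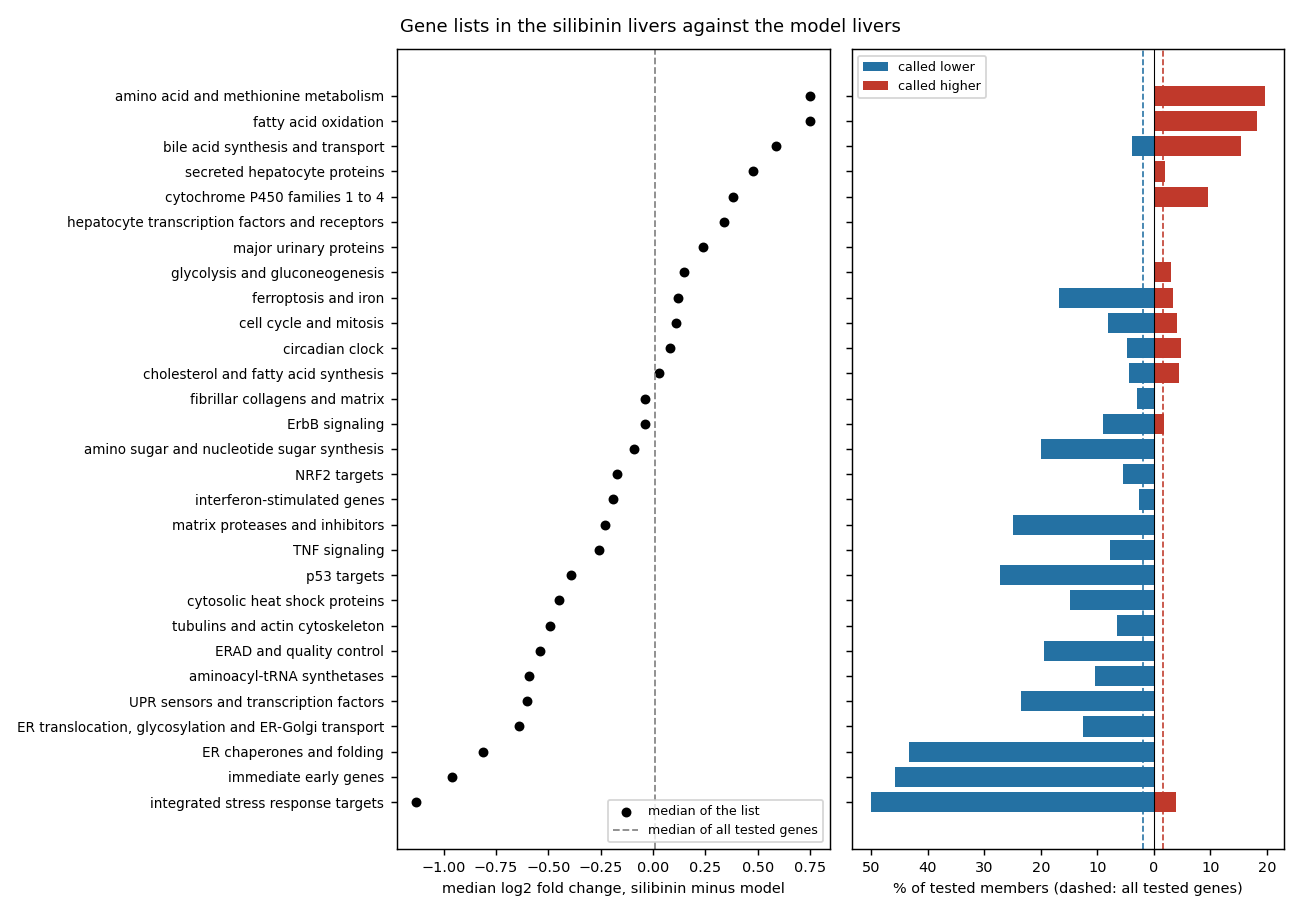
The left panel gives the median log2 fold change (silibinin minus model) of each of 29 gene lists, with a dashed line at 0.01 for all tested genes, and the right panel the percent of tested members called lower or higher, with dashed lines at 2% and 1.64% for all tested genes. Medians run from -1.13 for integrated stress response targets to 0.75 for fatty acid oxidation and for amino acid metabolism. Those of ferroptosis, cell cycle, clock, cholesterol and glycolysis lists fall to or below 0 without scaling. Lists were chosen with earlier results of these data known.

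Cell type markers were summed in each liver, and in bulk liver fewer cells of a type and less RNA per cell cannot be told apart. The 22 stellate cell and myofibroblast markers summed to 219, 221 and 222 scaled FPKM in the model livers and 234, 236 and 158 in the silibinin livers, with 0 of 20 tested called and Col3a1 the most abundant (25.3% of the sum). Sums also overlapped for Kupffer cells and macrophages (log2 difference 0.11, or -0.10 without scaling, most abundant Lyz2), scar-associated macrophages (0.06, or -0.16 without scaling, Ctsl), sinusoidal endothelium (-0.16, Clec4g), lymphocytes (-0.33, Cd74), neutrophils (-0.05, Lcn2) and erythroid cells (-0.54, Hbb-bs). Exact two-sided permutation p for these 7 sums were between 0.3 and 1. Lcn2 made up 76.1% of the neutrophil sum, the difference without it was -1.06, and 5 of 6 tested neutrophil markers were below 0 (median -0.73), with 0 called. Of 15 tested scar-associated macrophage markers, 10 were below 0 and 5 above (median -0.25), with 0 called. Ctsl made up 32.3% of their sum, and the difference without it was 0.26. Without scaling the stellate sums were 254, 250 and 258 against 236, 248 and 146 and the erythroid sums 783, 821 and 578 against 536, 548 and 265, both without overlap (exact two-sided permutation p 0.1), so whether these groups overlap depends on the scaling. No listed marker found in the table was at 0 in all 6 livers.

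The hepatocyte sum is given beside the metabolic genes called higher. Its 15 markers summed to 16900, 25400 and 28400 in the model livers and 32900, 39300 and 29100 in the silibinin livers, a log2 difference of 0.54 without overlap (exact two-sided permutation p 0.1). Alb made up 67.4% of it, 1 of 15 genes was called higher (Glul), and without Alb the difference was 0.74. Without scaling the difference was 0.33 and the sums overlapped, at 19700, 28700 and 33100 against 33200, 41400 and 26900. Glul, glutamine synthetase of the hepatocytes around the central vein, was at 26.7, 30.2 and 31.3 against 53.2, 69.8 and 61.8, and far higher at 515, 339 and 469 in the control livers. Its log2 fold change was 1.04, and it fell under the fold threshold at 0.97 without model replicate 1, 0.94 without silibinin replicate 2, 0.83 without scaling and 1.00 with voom. The part of the hepatocyte sum in the higher calls of metabolic genes was not tested.

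The cholangiocyte and ductular sum moved the other way, from 341, 476 and 369 in the model livers to 252, 215 and 219 in the silibinin livers (log2 difference -0.78, no overlap, exact two-sided permutation p 0.1). Of 10 tested members of 20 listed, 2 were called lower, Krt8 and Krt18, keratins that hepatocytes also make, and Krt18 made up 43.1% of the sum. Of the 10 tested members 6 were above 0, with a median of 0.13, among them Tff3 (1.91, adjusted p 0.12), Cldn3 (0.47, adjusted p 0.042) and Pkhd1 (0.40, adjusted p 0.14; limma, Benjamini-Hochberg). Krt8 was at 106, 157 and 131 against 53, 45.5 and 48.1 (-1.39, adjusted p 0.0043, limma, Benjamini-Hochberg), and Krt18 at 160, 236 and 156 against 96.9, 75.7 and 81.7 (-1.09), or -0.90 and under the fold threshold without model replicate 2. The duct keratin Krt19 was at 1.1, 1.66 and 1.57 against 1.80, 1.35 and 2.05, and Epcam was under 1 in all 6 livers. The part of this sum in the lower calls of stress genes was not tested.

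**Figure D5:**
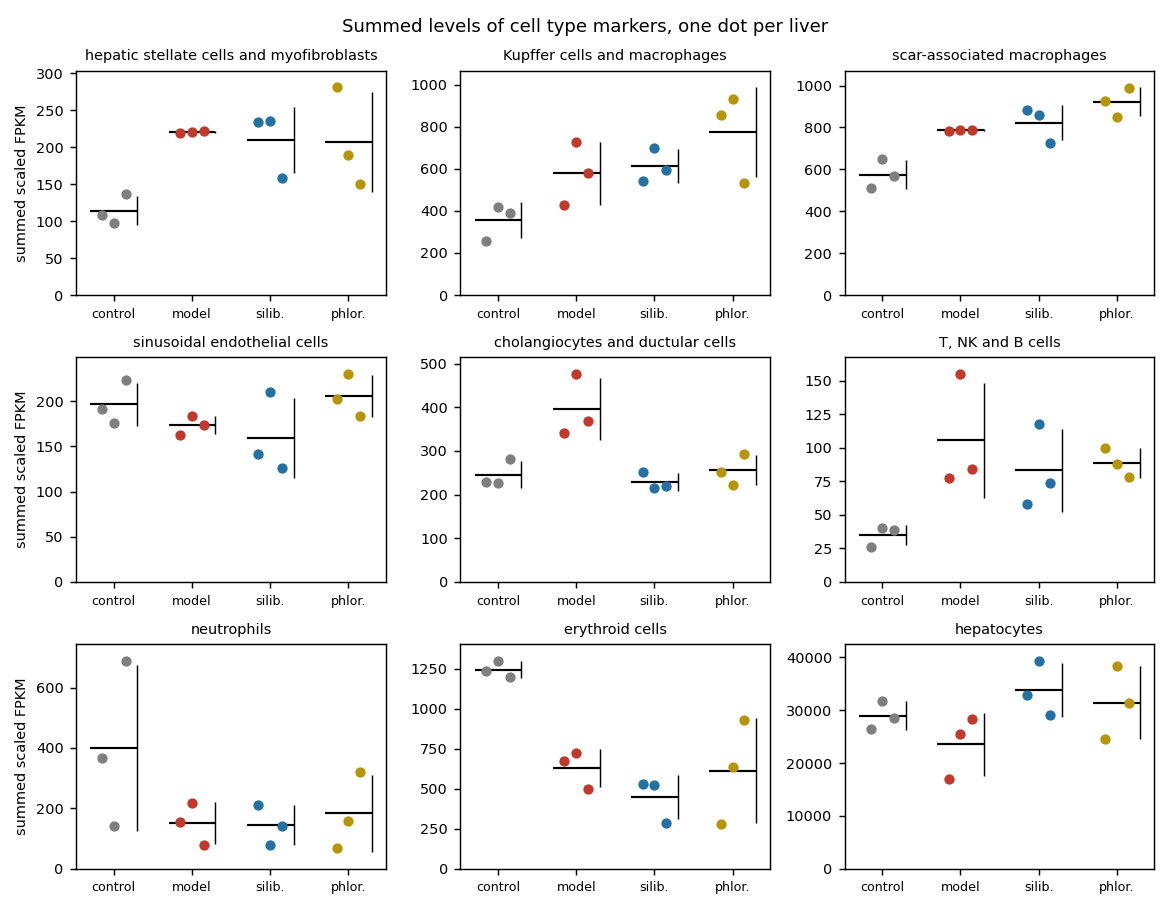
Each panel gives the summed scaled FPKM of the markers of 1 cell type with 1 dot per liver, a line at the mean and a bar of 1 SD either side, in control, model, silibinin (silib.) and phloridzin (phlor.) livers (n = 3 each). With the scaling used, between silibinin and model livers the cholangiocyte and hepatocyte sums do not overlap, and the other 7 do.

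The control livers give the levels without CCl4. In the same fit, 517 genes (4.47%) were called higher and 412 (3.56%) lower in model than in control livers. This comparison shares the model livers with the silibinin comparison, so opposite signs in both are built in, and values are only set side by side. In model against control livers, 7 of 30 ER chaperones, 14 of 26 integrated stress response targets and 16 of 34 matrix genes were called higher, and 15 of 46 amino acid genes and 10 of 44 fatty acid oxidation genes lower. Placed against the control livers themselves, 83 of the 232 genes called lower with silibinin lay below every control liver in all 3 silibinin livers, against 1540 (13.3%) of all tested genes, and 21 above every control liver, against 1712 (14.8%). Hspa5, Creld2, Manf, Calr, Sdf2l1, Dnajb9 and Hspb1 were among the former, and Atf3, Psat1, Thbs1, Mmp13, Cxcl10 and Jun among the latter. Of the 190 genes called higher, 38 lay above every control liver, against the same 14.8% of all tested genes. The called genes were selected for their levels in these same silibinin livers, so a difference between these shares and those of all tested genes is partly built in. In a principal component analysis of the 12 livers, the first component (26.7% of the variance) placed control livers at -37.2 to -35.6, model livers at 33.6 to 42.2 and silibinin livers at -8.5 to 4.1. The next component (16.3%) placed silibinin livers at -21.4 to -15.3, apart from control livers at 12 to 22.9 and model livers at 13.7 to 25.4, and within the range of the phloridzin livers, -32.2 to -11.2.

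Silibinin and phloridzin livers were compared directly. Of 11576 genes, 1 (0.00864%) was called, and 76 passed an unadjusted p under 0.05 with the same fold threshold (limma). The count was 2 without silibinin replicate 1, 5 without phloridzin replicate 1, and 0 without silibinin replicate 2, phloridzin replicate 2 or phloridzin replicate 3. For Hspa5 the difference of silibinin minus phloridzin was 0.01 (95% CI -0.34 to 0.37), for Atf3 -0.08 (95% CI -0.57 to 0.40), for Cyp8b1 -0.05 (95% CI -0.76 to 0.66) and for Col1a1 0.15 (95% CI -1.01 to 1.31). Cyp2e1 was at 432, 364 and 506 in the phloridzin livers, below every silibinin liver, and its difference of 1.29 (95% CI 0.39 to 2.20) is as large as that against the model livers, with an adjusted p of 1 (limma, Benjamini-Hochberg). Of the other named genes, Cab39l, a scaffold of the LKB1 kinase, and Cyp4a31 had differences of 2.23 (95% CI 0.59 to 3.86) and 1.13 (95% CI 0.36 to 1.90), also at an adjusted p of 1. Intervals also lay on 1 side of 0 for Rn7s1 (4.37, 95% CI 1.54 to 7.20), Abcc4 (-0.61, 95% CI -1.16 to -0.06), Abcg5 (-0.44, 95% CI -0.83 to -0.05) and Mup20, a major urinary protein (-0.81, 95% CI -1.43 to -0.19), each at an adjusted p of 1 (limma, Benjamini-Hochberg). The intervals of Hspa5, Atf3 and Cyp8b1 do not reach the size of the difference between silibinin and model, and a p that misses the threshold does not show that the drugs act alike. None of the gene lists held a gene called between the drugs, so nothing above is shown to be particular to silibinin.

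The genes with the largest rises differed in how even their values were. Rn7s1, the RNA of the signal recognition particle, was at 2400, 496 and 51.5 in the silibinin livers and 3.73, 32.2 and 26.0 in the model livers (4.62, 95% CI 1.79 to 7.45, adjusted p 0.039, limma, Benjamini-Hochberg). Its call was lost in 11 of the 19 alternatives it was run in. With NONCODE transcripts inside the gene added to the sum, the log2 fold change was 0.01 and the adjusted p 0.99 (limma, Benjamini-Hochberg), and with 1 liver left out the adjusted p was 0.12 without model replicate 1, 0.068 without model replicate 2, 0.063 without model replicate 3, 0.12 without silibinin replicate 1, 0.1 without silibinin replicate 2. Mrpl49, a mitochondrial ribosomal protein, was at 0.131, 0.197 and 0.219 against 7.5, 7.55 and 8.75, and at 9.69, 9.55 and 9.29 in the control livers (2.91, adjusted p 0.0008, limma, Benjamini-Hochberg). Its end overlaps the end of Syvn1 on the opposite strand, and the strand used in counting is not given in the sources used here, so reads in the stretch they share cannot be assigned to either gene. Klkb1, plasma prekallikrein, and Rdh9, a retinol dehydrogenase, rose by 2.18 and 2.02, at 31.4 ± 6.23 against 6.09 ± 1.00 and 24.7 ± 3.65 against 5.32 ± 0.296 scaled FPKM (SD, n = 3 each).

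These results have limits. Each group holds 3 livers, and the labels do not state that samples came from separate mice, so p-values measure the spread between these samples. RNA levels of whole liver were measured once, at the end of dosing, and protein, splicing, histology and serum values were not analysed here. There is no group with silibinin and without CCl4, so an effect of the drug on uninjured liver cannot be read from these data. Values are the deposited FPKM and not counts, and reads shared between near-identical genes were assigned by the authors.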

How the data were processed

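RNA of 12 whole livers, 3 in each of 4 groups, was sequenced. Per their processing notes, the authors used FastQC 0.11.5, HISAT2 2.1.0 on mm10 and StringTie 1.3.3b and name DESeq 1.28.0, and the deposited table holds FPKM per transcript. Libraries held 83.7 to 110.9 M (mega) fragments, recovered from the steps between FPKM values. Transcript values were summed by gene symbol, and transcripts without a symbol (NONCODE and assembled ones) were left out. They carried the remainder of the total FPKM, of which transcripts with a symbol made up 64.2% to 70.9% in the 6 livers compared. Livers were scaled by median ratios over 11459 genes.

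Genes with a mean scaled FPKM of at least 1 over the 12 livers were tested (11576, with 12720 symbols left out). limma 3.58.1 with a trend in the variance (R 4.3.3, data.table package, version 1.17.8) fitted 4 group means of log2(scaled FPKM + 1), with contrasts of silibinin minus model, silibinin minus phloridzin and model minus control. P-values were adjusted by Benjamini-Hochberg over the tested genes, and a call needed an adjusted p under 0.05 and a log2 fold change beyond 1 in either direction. Genes under the filter and marker sums were compared by exact two-sided permutation tests. Tables, promoter matches and plots used Python 3.11.15, pandas 2.3.3, numpy 2.4.6 and matplotlib 3.10.9, with gene types from GENCODE release M21.

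Named genes were the 10 largest rises and 10 largest falls among called genes with a mean of at least 5, no overlap and no predicted name. To these were added up to 8 called members of each of 29 lists (or the 2 most abundant where none was called), a panel of 33 genes, and genes called between the drugs. Keratins, the most abundant markers and other promoter genes were named after their values were seen. The lists cover ER folding and stress, amino acid and heat shock responses, iron, sugars, matrix, signalling, cell cycle, metabolism, secretion and the cytoskeleton, and 9 lists hold cell type markers. Members and lists were chosen with earlier results of these data known. Alternatives changed scaling, pseudocount, filter, livers in the fit, replicate block, fold threshold, variance trend, transcript summing, gene types and each liver in turn, and 2 were added later.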

Additional observations from a re-analysis of the deposited data

Results flagged for a closer look

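Pcgf6, a Polycomb group RING finger protein, differed between the drugs. It was at 3.64, 3.59 and 4.64 scaled FPKM in the silibinin livers and 0.635, 0.696 and 0.712 in the phloridzin livers, with 4.26, 6.67 and 6.86 in the model livers and 4.32, 3.57 and 4.72 in the control livers. The phloridzin livers lay below every liver of the other 3 groups. The log2 difference of silibinin minus phloridzin was 1.55, with an adjusted p of 0.028 (limma, Benjamini-Hochberg). It was the 1 gene called in that comparison, its mean was under 5, and it was named after its values were seen. The adjusted p was 0.068 with only the compared groups, 0.056, 0.15 and 0.1 without silibinin replicates 1, 2 and 3, and 0.046, 0.071 and 0.075 without phloridzin replicates 1, 2 and 3. With a pseudocount of 0.1 the difference was 2.37 and the adjusted p 0.0034. Groups of 3 livers were not tested for single livers far from their group.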

How the results depend on the processing

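Of silibinin against model, 422 genes were called. Without a fold threshold the count was 1575 (742 higher, 833 lower), and with each of the 6 livers left out in turn it ran from 303 to 463 (110 to 223 higher, 193 to 240 lower). Without scaling 101 genes were called higher and 412 lower, with a mean of at least 5 the count of lower genes was 140, and with voom, chosen after seeing the data, it was 388. A higher filter tests fewer genes; the cause of the other changes was not tested. Of the 422 genes, 333 were still called without scaling, 404 with upper quartile scaling, 373 with only the compared groups, 292 with the highest transcript and 377 with voom, and 282 to 365 with 1 liver left out.

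Of silibinin against phloridzin, the count of 1 became 2 without scaling, 2 without the filter, 0 with only the compared groups, 2 with the replicate block and 0 to 5 with 1 liver left out. The cause was not tested.

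With the replicate block, 406 genes were called between silibinin and model livers, Cyp2e1 gained a call (adjusted p 0.036) and 10 named genes lost it, Hmox1 among them (0.069, limma, Benjamini-Hochberg). Deviations of livers with the same number had correlations across genes of 0.05, -0.04 and -0.05, and those with different numbers ran from -0.05 to 0.09. These values show no pairing by number, but 3 livers per group cannot exclude it, and genes are not independent replicates. Of 147 named genes tested, 123 were called, 66 of them in each alternative they were run in (44 in 20, 20 in 19 and 2 in 18) and 57 not in some, and 0 reversed. At these depths genes under a mean scaled FPKM of 1 were not tested with limma.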

Other observations

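Of 22 tested p53 targets, 6 were called lower (27.3% against 2% of all tested genes) and 0 higher in silibinin than in model livers, with a median log2 fold change of -0.39. The count was 3 without model replicate 2, model replicate 3 or silibinin replicate 1, 4 without silibinin replicate 2 or 3, and 3 with the highest transcript in place of the sum or no filter on low values. Gadd45a and Trp53inp1, which take part in growth arrest, fell by 2.33 and 1.45. Gdf15, Btg2, Gadd45a and Cdkn1a are also counted in other lists. Of 31 tubulin and actin genes, 2 were called lower (6.45% against 2%) and 0 higher, with a median of -0.49. The count of lower genes was 6 without scaling, 4 with voom, 4 without model replicate 1 or silibinin replicate 2 and 1 without model replicate 2. Actg1, a cytoplasmic actin, fell by 1.22, from 112, 167 and 145 scaled FPKM in the model livers to 58.9, 57.6 and 61.2.

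Cell cycle genes had 4 called lower (8.16% against 2% of all tested genes) and 2 higher (4.08% against 1.64%) of 49 tested. Their median of 0.11 was gone without scaling. Without model replicate 2 the counts were 2 lower and 1 higher, and 1 was higher without model replicate 1, silibinin replicate 2 or 3, or scaling, while 7 were lower with voom. Cholesterol and fatty acid synthesis genes had 2 called lower and 2 higher of 45 (4.44% each way, median 0.03, or -0.18 without scaling). Without scaling 4 were lower and 1 higher. Lower calls numbered 1 without model replicate 1 or 2 and 0 without model replicate 3 or silibinin replicate 1 or 3. Clock genes had 1 lower and 1 higher of 21 (4.76% each way, median 0.08, or -0.06 without scaling). The lower call was lost without model replicate 1 or silibinin replicate 2 or 3, and the higher call without model replicate 2 or 3 or any 1 silibinin liver, and without scaling 2 were lower and 0 higher. Glycolysis and gluconeogenesis genes had 1 called higher of 33, Fbp1 (3.03% against 1.64%, median 0.15, or -0.07 without scaling). The count was 0 without model replicate 2 or silibinin replicate 1 or 2 and 2 without model replicate 3, and 1 was called lower without scaling. Fbp1 also lost its call without model replicate 1 or silibinin replicate 3, at an adjusted p of 0.096 and 0.099 (limma, Benjamini-Hochberg).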
